A study of Mus musculus with 6 samples.

Results

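The genes described here encode the machinery that docks, primes and fuses synaptic vesicles. Members were taken by gene symbol alone: the synaptotagmins (Syt), synapsins (Syn), synaptophysin (Syp), VAMPs (Vamp), syntaxins (Stx), syntaxin-binding proteins (Stxbp), SNAP family genes (Snap), RIMs (Rims), Unc13 genes, complexins (Cplx), SV2 genes, Rab3 genes, Bsn and Pclo. This gave 76 genes of the 32201 in the deposited table. RNA sequencing measured them in the hippocampus of 8-week-old male C57BL/6N mice. Every mouse went through chronic unpredictable mild stress, in which minor stressors are varied over time. Of the 6 libraries, 3 came from stressed mice given baicalin, a plant flavone glucuronide, at 20 mg/kg, and 3 from stressed mice given saline. An unstressed control group is named in the labels and is not analysed here, so each comparison is between stressed mice. Whether the libraries are from separate animals is not in the labels, and p-values therefore measure only the spread between these libraries.

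A nerve terminal holds vesicles filled with transmitter. Vesicles are tethered at the active zone by scaffold proteins, primed by the Unc13 proteins, and fused when a vesicle SNARE protein zips together with SNAREs of the target membrane. Synaptotagmins sense the calcium that enters with an action potential and trigger that fusion. Complexins hold assembled SNAREs in check, and syntaxin-binding proteins chaperone the syntaxins.

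Library totals ranged from 61303274 to 67957752 counts, and members took 1.98 to 2.09% of them. All 15 marker lists of hippocampal and neighbouring cell types were detected in every library, and no listed marker was at 0 in any of them. Summed dentate granule cell markers were lowest in saline library 2, at 349.7 CPM (TMM-scaled counts relative to library size) against 465.9 to 499.8 in the other libraries. Summed CA1 markers were at 614.8, 487.8 and 569.3 CPM with baicalin and at 651.8, 621.0 and 623.3 with saline. Each baicalin library lay below each saline library, with baicalin library 2 lowest. The part of CA1 marker levels in the values of members was not tested. Meningeal markers were highest in saline library 3, at 60.3 CPM against 26.8 to 32.6 elsewhere. Mitochondrial genes took the largest share in baicalin library 3 (8.69% against 7.18 to 7.82%).

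Levels of the members ranged from near silence to the 373.0 FPKM of Snap25. Levels between genes are compared in FPKM, fragments scaled to transcript length and library size, as deposited. Of the 76 members, 11 averaged 100 FPKM or more across the 6 libraries, 23 lay between 10 and 100, 27 between 1 and 10, and 15 under 1. The 5 most abundant, all over 250 FPKM, held 47.8% of the members' summed FPKM. They were Snap25, a target membrane SNARE (373.0 FPKM), Cplx2 (350.1) and Cplx1 (275.8), the main brain complexins, Syp, an abundant vesicle membrane protein (341.7), and Vamp2, the main vesicle SNARE of forebrain (319.2). Snap25 was 121.0 times Snap23, which encodes its widely expressed relative, while Snap47, another SNAP family gene, stood at 94.5 FPKM. Vamp2 exceeded Vamp1 (12.9 FPKM), and the complexins were close to each other. The fast calcium sensor gene Syt1 (186.7 FPKM) stood 63.7 times above Syt2, the fast sensor of hindbrain and of some interneurons. Ppp1r12b, which overlaps Syt2 on the opposite strand, had 575% of the counts of Syt2, and its part in that level was not tested. Unc13a, the main priming gene, was 15.9 times Unc13b.

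**Figure D1:**
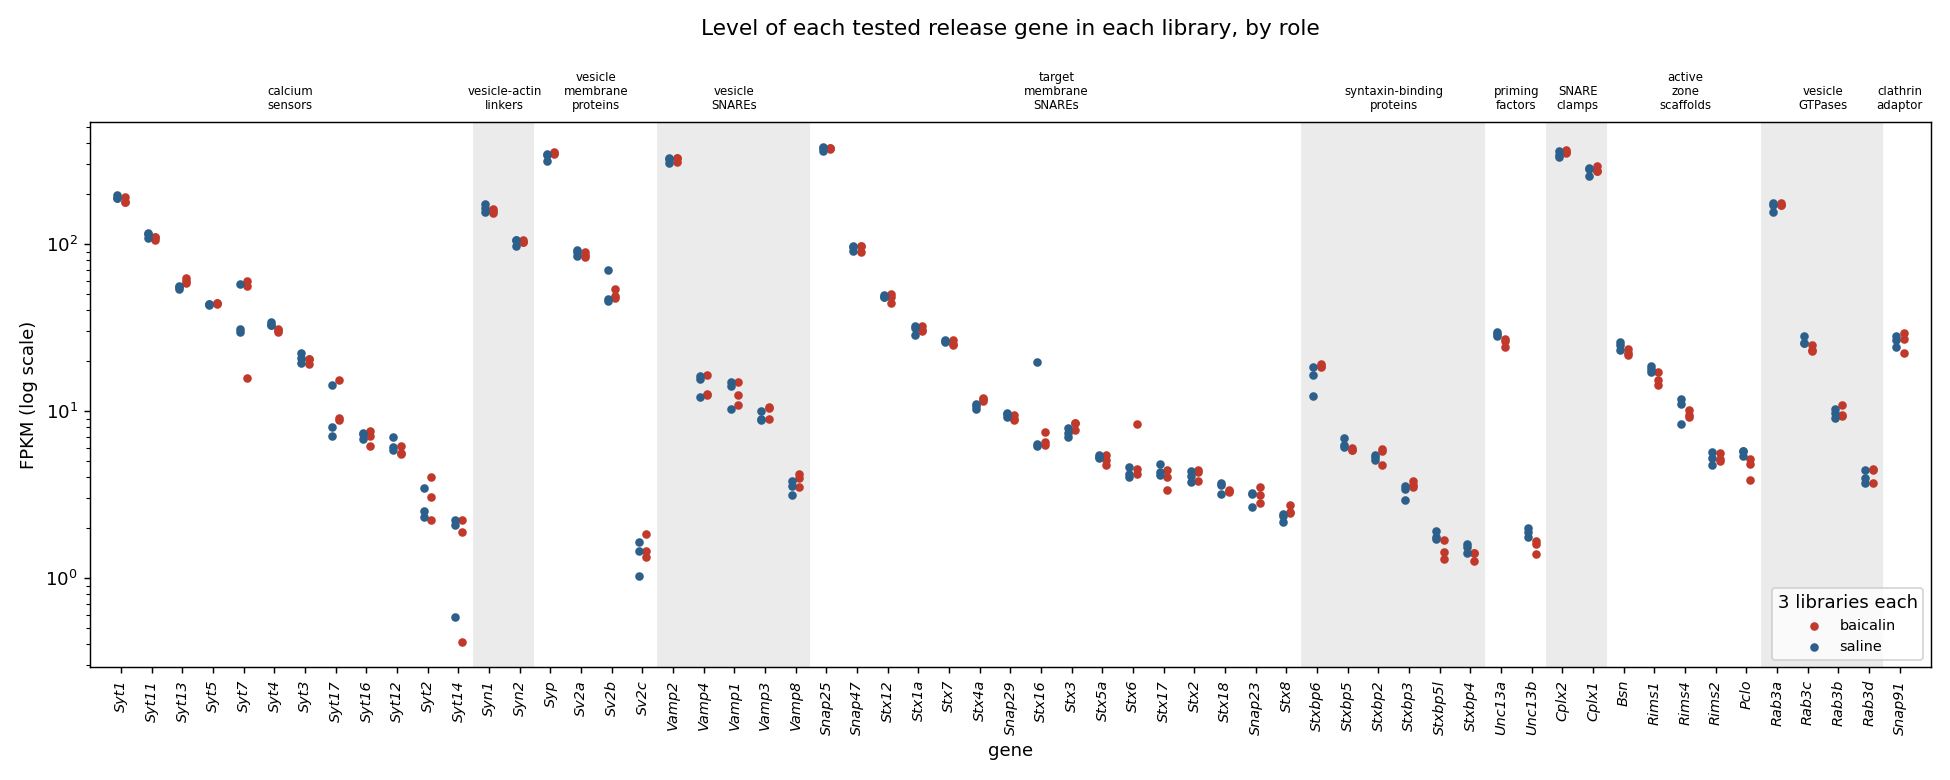
Level of 59 of the 61 tested members, grouped by role. The vertical axis is FPKM on a log scale, and each point is 1 library (3 saline, 3 baicalin). Most genes form a tight column of 6 points, while Syt7, Syt14, Syt17, Stx16 and Stx6 split into separate levels.

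The 15 members under 1 FPKM were not tested. They include Cplx3 (0.983 FPKM on average) and Cplx4 (0.0213), complexins known mainly from retina, the cerebellar priming gene Unc13c (0.607) and its immune-cell relative Unc13d (0.201), and Syn3 (0.350). The others were Syt6, Syt8, Syt9, Syt10, Syt15, Rims3, Stx11, Stx19, Vamp5 and Vamp9. Syt8 had counts in 1 library (4) and Stx19 in 2 (16 and 6), with 0 in the rest. These genes are accounted for here as levels only.

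Promoter sequence was read for the 60 members that matched a RefSeq promoter by symbol (76 start sites, GRCm38.p6, 250 bases before to 50 after each start). Motifs were searched on both strands, and a match describes letters only. The left part of the RE1 element, TTCAGCACC, by which the repressor REST silences neuronal genes outside neurons, occurred in 2.63% of member promoters, 0.371% of all 32851 promoters and 0.415% of those whose gene averaged 1 FPKM or more. The NRF1 palindrome (in capitals at Stxbp5 and Bsn) occurred in 5.26% of member promoters, 0.971% of all promoters and 2% of those whose gene averaged 1 FPKM or more. The full cyclic AMP element, TGACGTCA, occurred in 2.63%, against 1.79% of all and 3.04% of genes of at least 1 FPKM, and the GC box, GGGCGG, in 67.1% against 35.7% of all and 62.7% of genes of at least 1 FPKM. These are matches in 2, 4, 2 and 51 member promoters. The windows below are shown because they lie at members described here, with the match in capitals. These members are the priming gene Unc13a, the synapsin Syn1 and the tomosyn gene Stxbp5. In the window labels RE1 stands for its left part only, and the whole element was not searched.
Unc13a, RE1, chr8:71671716-71671745, plus strand: ggccatgtcgcTTCAGCACCgggggcgcgg
Syn1, RE1, chrX:20921131-20921160, minus strand: cactgtcggaTTCAGCACCgcggtcagagc
Syn1, cyclic AMP element, chrX:20921059-20921088, minus strand: caaaggctgacTGACGTCActcactagccc
Stxbp5, NRF1, chr10:9901220-9901249, minus strand: gggcggcggcGCGCATGCGCaccgggcagc
The match of Unc13a begins 23 bases after the start and is on the strand opposite to the gene, and those of Syn1 begin 232 and 159 bases before it. Bsn has NRF1 palindromes 148 and 17 bases before its start, and its 250 bases before the start (71.6% G and C, 32 CpG) are given whole to show their spacing.
Bsn, chr9:108190384-108190633, minus strand: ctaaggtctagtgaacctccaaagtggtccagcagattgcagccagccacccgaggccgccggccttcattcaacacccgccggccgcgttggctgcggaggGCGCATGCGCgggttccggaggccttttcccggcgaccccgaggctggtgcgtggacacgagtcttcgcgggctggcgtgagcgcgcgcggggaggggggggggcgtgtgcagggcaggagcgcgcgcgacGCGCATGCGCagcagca

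No member differed between the treatment groups at the adjusted threshold. Of the 61 tested, 0 passed an adjusted p of 0.05 in edgeR's quasi-likelihood test, where 0.0456% of all 13153 genes did (0.0152% higher and 0.0304% lower with baicalin). In DESeq2 0 members passed, where 1.6% of all genes did, and in limma after quantile normalization 0 passed, where 0.0456% of all genes did. At an unadjusted p under 0.05 in edgeR, 2 members were higher and 7 lower with baicalin. All genes had 6.34% higher and 5.46% lower by that measure, or 11.8% in all, against 14.8% of members. The groups did not overlap for 5 members on the higher side (8.2%) and 7 on the lower (11.5%), where all genes had 9.93% and 9.52%, or 19.4% in either direction. Leaving out single libraries, the share of members under that unadjusted p ran from 3.28% to 14.8%. It was 3.28% without baicalin library 3 (1 higher, 1 lower), against 7.46% of all genes. Without saline library 2 it was also 3.28% (0 higher, 2 lower), against 8%. Without saline library 3 it was 14.8% (4 higher, 5 lower), against 10.4%. Without baicalin library 2 it was 11.5%, against 10.2%. Without baicalin library 1 it was 9.84%, against 12.5%, and without saline library 1 8.2%, against 9.64%. The median log2 change over members was -0.02, with 30 positive and 31 negative (50.8%, against 50.2% of all genes), and the median over all genes was -0.0006. In bulk tissue a lower level may mean fewer cells of a type or less RNA per cell, which cannot be told apart.

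**Figure D2:**
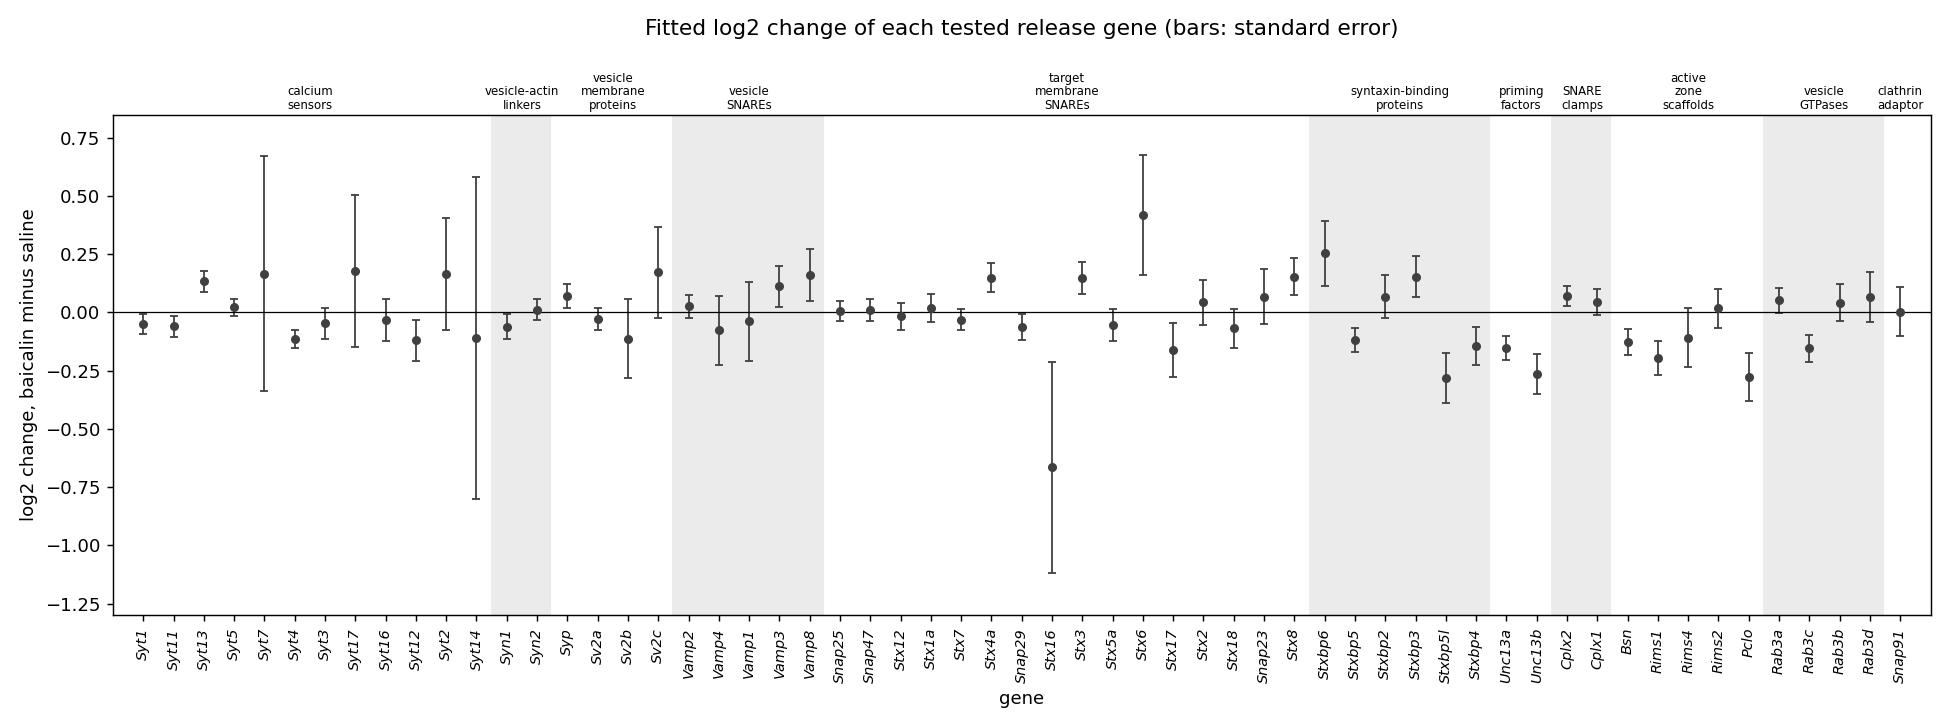
Fitted log2 change (baicalin minus saline) of 59 of the 61 tested members, grouped by role. Points are the estimates and bars their standard errors. The most abundant genes lie near 0 with short bars, the Unc13 genes and most active zone scaffolds lie below 0, and Syt7, Syt14 and Stx16 carry the longest bars.

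The core fusion complex joins a SNAP, a VAMP and a syntaxin. Snap25 (chromosome 2, 136713453 to 136782428) was at 376.4, 382.6 and 360.4 FPKM in the saline libraries and at 374.0, 367.8 and 376.8 in the baicalin libraries. The groups overlapped, and the log2 change was 0.01 ± 0.04 (SE), with a 95% interval of 0.934 to 1.08 for the baicalin to saline ratio. Vamp2 was at 322.5, 325.4 and 303.2 FPKM with saline and at 327.0, 309.6 and 327.6 with baicalin, a ratio of 1.02 (0.938 to 1.11). Stx1a, a neuronal plasma membrane syntaxin at 30.9 FPKM on average, was at 31.4, 32.3 and 28.5 FPKM with saline and 30.5, 32.3 and 30.2 with baicalin, a ratio of 1.01 (0.917 to 1.12). These intervals are those of the edgeR fit with TMM scaling and leave out the choice of scaling. Under TPM scaling the log2 changes were -0.07 (Snap25), -0.05 (Vamp2) and -0.06 (Stx1a), where the median of all genes was -0.08.

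Other target membrane SNAREs include syntaxins of the endosome and Golgi. Of 17 tested, 9 had positive and 8 negative log2 changes, with a median of 0.01. Stx4a, a plasma membrane syntaxin outside the synapse proper, was at 28.7, 27.6 and 29.6 CPM with saline and 32.6, 30.6 and 32.2 with baicalin. All baicalin libraries lay above all saline libraries, with a log2 change of 0.15 ± 0.06 (SE) and an adjusted p of 0.417 in edgeR. A listed gene that overlaps it had many more counts than Stx4a itself, and the part of those reads in the value was not tested. Stx8, an endosomal syntaxin and the lowest tested one, had 0.15 ± 0.08 and also did not overlap between groups.

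Among vesicle SNAREs and vesicle membrane proteins 0 passed in edgeR. The 95% interval of the baicalin to saline ratio was wide for some of them. It was 0.736 to 1.289 for Vamp1, 0.929 to 1.343 for Vamp8, 0.698 to 1.225 for Sv2b and 0.816 to 1.558 for Sv2c. The 5 tested Vamp genes had changes from -0.08 to 0.16 on the log2 scale. Vamp1, known from interneurons and brainstem, varied within both groups, at 119.2, 173.9 and 163.3 CPM with saline and 126.7, 143.8 and 174.2 with baicalin. Vamp8, an endosomal and secretory SNARE gene at 3.69 FPKM, had 0.16 ± 0.11. Syp was at 341.2, 347.5 and 314.1 FPKM with saline and 351.3, 343.6 and 352.6 with baicalin, a ratio of 1.05 (0.963 to 1.14). Sv2a, the most widely expressed SV2 gene and the target of levetiracetam, had a ratio of 0.981 (0.906 to 1.06). Sv2b was at 448.2, 670.8 and 432.2 CPM with saline and 514.3, 461.4 and 459.0 with baicalin. One saline library, number 2, stood above the other 5, and in that library the dentate granule markers were lowest; their part in the value was not tested. Sv2c, low in hippocampus at 1.46 FPKM, had 0.17 ± 0.20.

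Synapsins tie vesicles to the actin cytoskeleton and to one another. Syn1, an X-linked gene, was at 164.3, 173.6 and 155.7 FPKM with saline and 161.0, 152.2 and 157.4 with baicalin, and the groups overlapped (log2 change -0.06 ± 0.05). Syn2 was at 106.0, 105.6 and 97.8 FPKM with saline and 105.2, 102.1 and 103.3 with baicalin (0.01 ± 0.05). The complexins, which clamp the assembled SNAREs, both had small positive values. Cplx1 was at 0.05 ± 0.06 and Cplx2 at 0.07 ± 0.04, each negative under TPM scaling.

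Synaptotagmins differed in how closely their libraries agreed. Of the 12 tested, 1 had an unadjusted p under 0.05 on each side (8.33%, against 6.34% higher and 5.46% lower over all genes). Syt1 was at 187.1, 195.8 and 187.9 FPKM with saline and 178.6, 191.8 and 179.0 with baicalin, a ratio of 0.967 (0.899 to 1.04). Syt4, which encodes a synaptotagmin of dense-core and postsynaptic vesicles, was at 145.4, 150.9 and 143.8 CPM with saline and at 136.0, 136.9 and 134.0 with baicalin. Each baicalin value lay below each saline value, and the log2 change was -0.11 ± 0.04 with an adjusted p of 0.380 in edgeR. Syt13, an atypical synaptotagmin, was at 230.8, 237.8 and 239.9 CPM with saline and 258.9, 247.0 and 271.3 with baicalin. It had the opposite sign, with no overlap between groups, a change of 0.13 ± 0.05 and an adjusted p of 0.385 in edgeR. Syt2 was at 20.2, 30.3 and 21.8 CPM with saline and 26.5, 35.0 and 19.6 with baicalin, so its libraries ranged as widely within each group as between them.

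Priming factors had the smallest unadjusted p-values among members. Unc13a (chromosome 8, 71624417 to 71671757), which encodes the protein that opens syntaxin and readies vesicles at most excitatory synapses, was at 423.9, 416.2 and 400.7 CPM with saline. With baicalin it was at 390.6, 374.3 and 350.6 CPM. The groups did not overlap, and the log2 change was -0.15 ± 0.05 with an adjusted p of 0.375 in edgeR (0.270 to 0.657 over the alternatives). Its annotated span overlaps that of Colgalt1 on the opposite strand, which had 16.4% as many counts and a log2 change of -0.18 ± 0.22; its part in the value was not tested. The match printed above at the start of Unc13a is to the left part of RE1 only, and its part in the value was not tested. Unc13b, a less abundant priming gene, was at 45.3, 48.9 and 51.5 CPM with saline and 43.5, 41.0 and 36.8 with baicalin. Here too all baicalin values were below all saline values, with a change of -0.26 ± 0.08 and an adjusted p of 0.360 in edgeR (0.165 to 0.657 over the alternatives).

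Active zone scaffolds help gather vesicles and calcium channels at the release site. Of 5 tested, 4 had negative log2 changes, with a median of -0.13, and 0 passed in edgeR. Pclo, which encodes Piccolo, was at 136.7, 147.5 and 147.2 CPM with saline and at 124.0, 131.7 and 100.1 with baicalin. The groups did not overlap, baicalin library 3 was the lowest, and the change was -0.28 ± 0.10 (-0.17 without that library; adjusted p = 0.395 in edgeR). Bsn, which encodes Bassoon, was at 470.4, 449.1 and 417.8 CPM with saline and 392.6, 423.0 and 409.2 with baicalin. The groups overlapped by 1 library, and the change was -0.13 ± 0.06. Rims1, the main RIM scaffold gene here at 16.7 FPKM, was at 142.9, 150.2 and 156.4 CPM with saline and 144.0, 127.6 and 120.9 with baicalin. Baicalin library 1 lay inside the saline range, and the change was -0.20 ± 0.07 (adjusted p = 0.399 in edgeR). Its paralog Rims2 was at 0.02 ± 0.08.

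Vesicle GTPases and syntaxin-binding proteins each held a long gene with a lower value. Rab3a, the main GTPase of synaptic vesicles, was at 174.7, 171.8 and 155.9 FPKM with saline and 170.4, 171.6 and 176.5 with baicalin (0.05 ± 0.05, negative under TPM scaling). Rab3c was at 347.5, 388.9 and 349.1 CPM with saline and 339.4, 311.9 and 324.1 with baicalin, without overlap (-0.15 ± 0.06, adjusted p = 0.404 in edgeR). Rab3d, better known from secretory glands, had 0.07 ± 0.11. Stxbp5l, a tomosyn gene whose family holds back SNARE assembly, was at 17.0, 16.7 and 18.6 CPM with saline and 13.9, 16.3 and 12.8 with baicalin, again without overlap (-0.28 ± 0.11, adjusted p = 0.406 in edgeR). Its relative Stxbp5 was at -0.12 ± 0.05 and at -0.02 with the length trend removed. Stxbp4, at 1.44 FPKM, had -0.14 ± 0.08. Stxbp6, which encodes amisyn, was at 98.9, 73.9 and 110.8 CPM with saline and 115.2, 110.7 and 112.5 with baicalin, a change of 0.25 ± 0.14. Without saline library 2, where Stxbp6 and the dentate granule markers were both lowest, it was 0.11; the part of those markers was not tested. Snap91, which encodes the clathrin adaptor AP180 and is no SNARE, was at 0.003 ± 0.10.

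Of the 7 members with lower values at an unadjusted p under 0.05, 6 were longer than the median member, and long genes had lower values across the transcriptome. Gene length was taken from the ratio of counts to FPKM. With all tested genes in 20 bins of length, the bin of the shortest genes (median 386 bp) had a median log2 change of 0.20 and that of the longest (17090 bp) one of -0.10. Unc13b (25998 bp), Pclo (25628 bp), Bsn (18185 bp), Unc13a (14405 bp) and Rab3c (13749 bp) are among the longest members, against a member median of 5943 bp. Of the 30 members longer than that, 56.7% were negative with a median of -0.04, where 67.4% of the 4757 tested genes of that length were negative with a median of -0.05. At an unadjusted p under 0.05 in edgeR, 0 of these 30 members were higher and 6 lower. Of those 4757 genes, 115 were higher and 486 lower by that measure. With the length trend of each library removed, the 6 long ones were at -0.08 (Unc13a), -0.14 (Unc13b), -0.16 (Pclo), -0.08 (Rab3c), -0.15 (Rims1) and -0.23 (Stxbp5l). Bsn, which was not among the 7, was at -0.03. Members under an unadjusted p of 0.05 in edgeR then numbered 3 higher (Syt13, Stx3 and Stx8) and 1 lower (6.56%, against 9.12% of all genes), where without that correction 7 were lower. Syt4, at 4441 bp, kept -0.11 and was the lower one. Under TPM scaling the split was 0 higher and 9 lower, and 331 higher to 1561 lower over all genes.

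**Figure D3:**
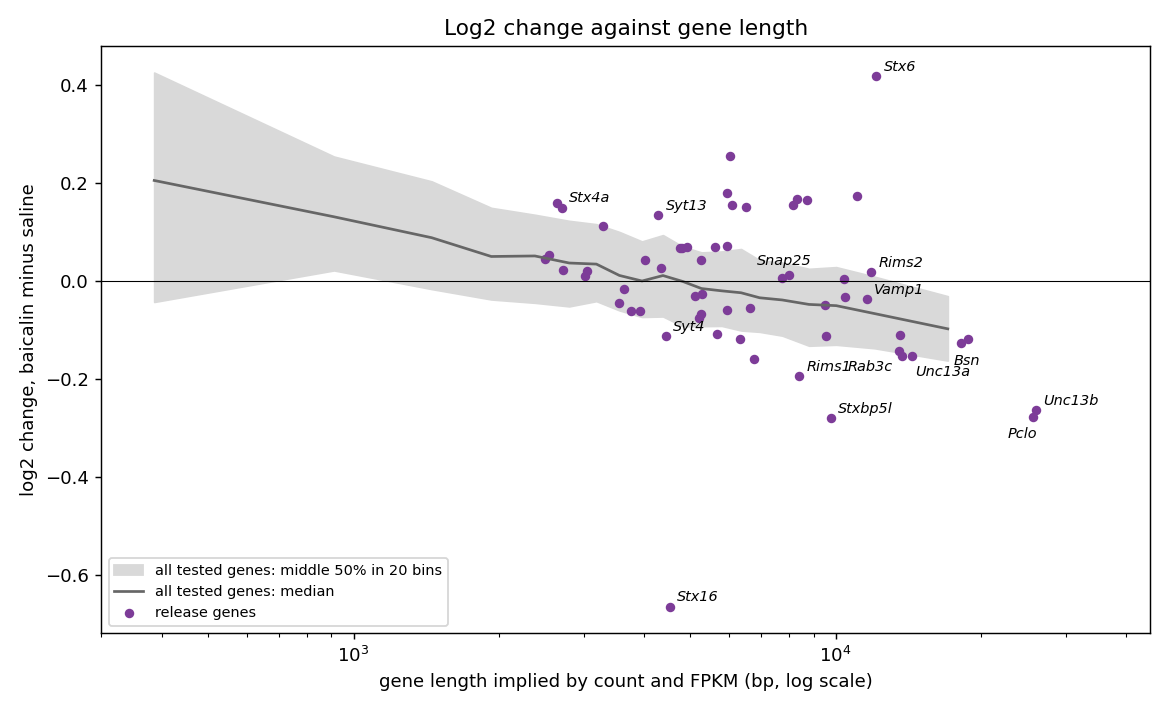
Log2 change (baicalin minus saline) against gene length in bp on a log scale. The grey line and band are the median and interquartile range of all tested genes in 20 length bins, and purple points are 59 of the 61 tested members. The line falls from 0.20 to -0.10, and Unc13a and Rab3c lie at the lower edge of the band while Stx16 and Stx6 lie far from it.

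Several members fell into separate levels that did not follow treatment. For 9 of the 61 members (14.8%) the highest library of a group was at least 1.5 times the lowest, as for 17.2% of all tested genes. Syt7, a slow calcium sensor gene of facilitation and vesicle refilling, showed 3 levels. It was at 246.6, 255.6 and 473.1 CPM with saline and 131.7, 492.1 and 471.0 with baicalin. Baicalin library 1 was lowest, saline libraries 1 and 2 were intermediate, and the other 3 libraries lay together at the top. Syt14 was low in saline library 1 and baicalin library 1 (7.97 and 5.61 CPM) and at 25.9 to 30.01 CPM in the rest. Syt17 was high in saline library 2 and baicalin library 1 (85.4 and 91.0 CPM) and at 42.1 to 53.5 elsewhere.

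Among endosomal and Golgi syntaxins the departures were of single libraries. Stx16 was at 27.9, 28.8 and 88.7 CPM with saline and 29.3, 33.8 and 28.5 with baicalin, and saline library 3, where meningeal markers were highest, stood far above the next library. Its log2 change of -0.66 ± 0.45, the lowest of all members, became 0.11 without that library. Stx6 was at 48.7, 50.9 and 55.4 CPM with saline and 54.5, 101.0 and 51.6 with baicalin. Summed choroid plexus markers were also highest in baicalin library 2, at 118.2 CPM against 41.6 to 83.1 elsewhere. Without that library the Stx6 change of 0.42 ± 0.26, the highest of all members, was 0.04. The library that departed differed from gene to gene, while Snap25 stayed between 360.4 and 382.6 FPKM in all 6. The part of marker levels in these values was not tested.

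**Figure D4:**
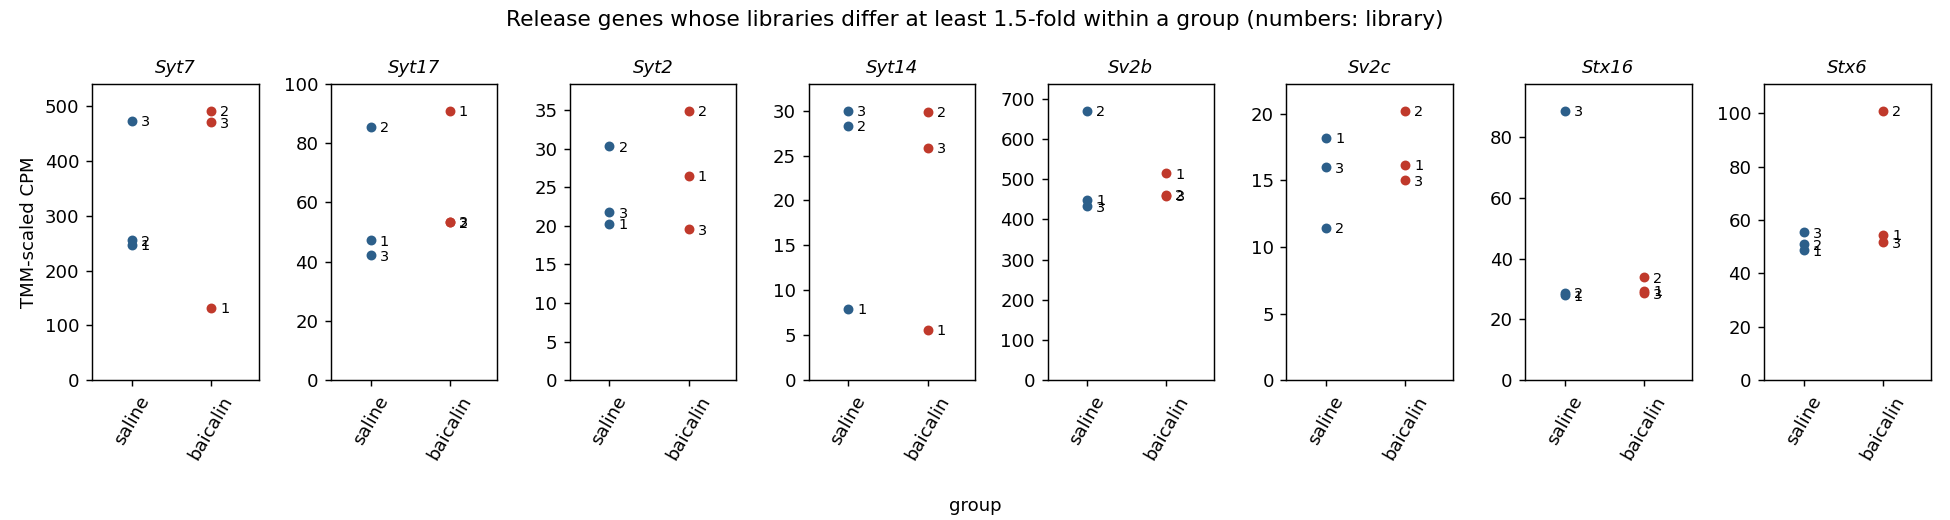
TMM-scaled CPM of 8 of the 9 members whose libraries differed at least 1.5-fold within a group. Each point is 1 library, numbered by replicate, with its own vertical axis from 0 for each gene. Syt14 has 1 low library in each group, and Stx16 and Stx6 each have 1 library far above the rest.

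Ratios of paralogs within a library do not depend on library scaling, and 13 pairs were compared by an exact two-sided permutation test, whose smallest possible p is 0.1. That smallest p lies above the adjusted threshold, so no pair could have passed, whatever its values. The count of 0 pairs passing after adjustment was therefore fixed in advance, and no conclusion is drawn from it. The ratio of Syn1 to Syn2 on the log2 scale was 0.60 ± 0.02 (SD) in the baicalin libraries and 0.67 ± 0.04 in the saline libraries, n = 3 each, with no overlap (exact p = 0.1, adjusted 0.65). Rab3a to Rab3c was 2.87 ± 0.07 against 2.67 ± 0.10 (exact p = 0.1, adjusted 0.65), also with no overlap. That difference of 0.21 was 0.09 with the length trend removed, while that of Syn1 to Syn2 went from -0.07 to -0.13. Rab3a has 2540 bp and Rab3c 13749 bp. Araf, which overlaps Syn1 on the opposite strand, had 14.3% as many counts as Syn1, and its part was not tested. Cplx1 to Cplx2 was -0.36 ± 0.02 against -0.33 ± 0.10 (exact permutation p = 0.8, n = 3 each). Groups overlapped for the other 11 pairs. Syt1 to Syt7 ranged from 1.68 to 3.49 among baicalin libraries.

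**Figure D5:**
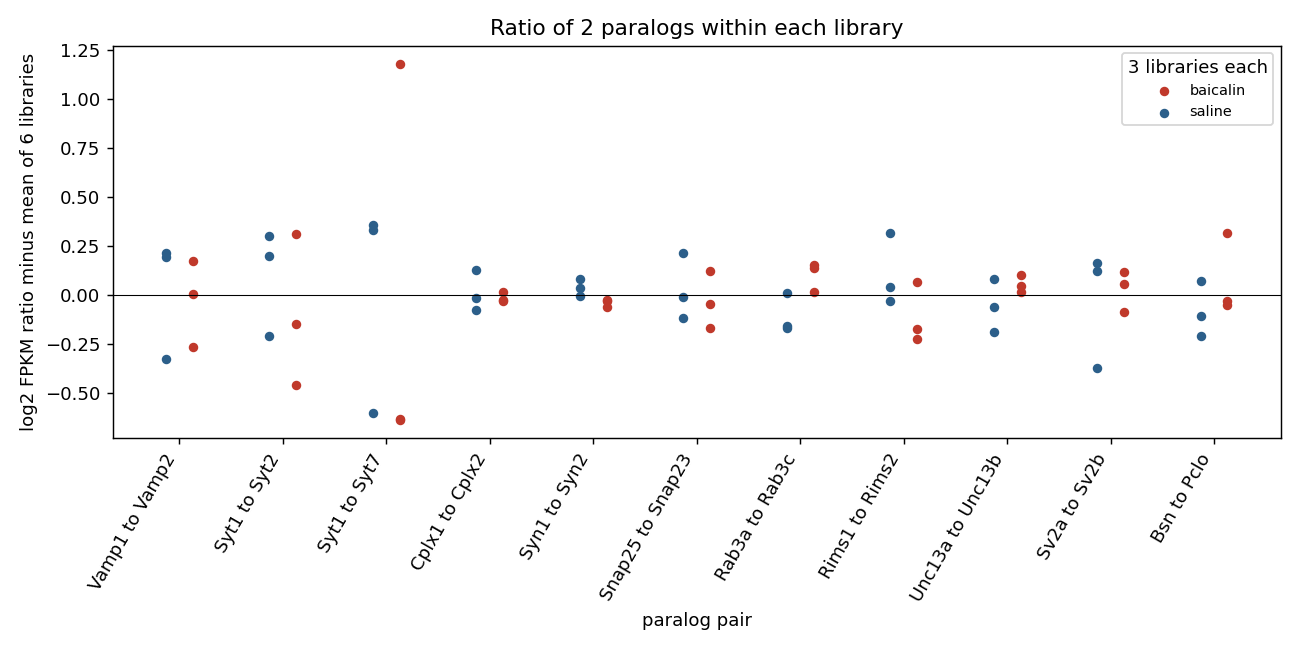
Log2 ratio of FPKM between 2 paralogs in each library, minus the mean of the 6 libraries, for 11 of the 13 pairs. Each point is 1 library (3 saline, 3 baicalin). The groups separate without overlap for Syn1 to Syn2 and Rab3a to Rab3c, and Syt1 to Syt7 spreads the most.

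Genes of the same pathway outside the symbol rule were tested in the same fit. Of 78 listed genes for SNARE recycling, docking, vesicle loading and vesicle retrieval, 74 were tested, and 0 passed in edgeR, with 1 higher and 7 lower at an unadjusted p under 0.05, where all genes had 6.34% higher and 5.46% lower. Their median log2 change was -0.01, with 35 positive and 39 negative. Dmxl2, a vesicle-associated regulator of Rab3 and of the proton pump, was at 261.1, 263.6 and 269.4 CPM with saline and 199.2, 249.8 and 190.2 with baicalin (-0.31 ± 0.10, adjusted p = 0.366 in edgeR). Cadps2, a priming factor of dense-core vesicles, was at 118.6 to 136.0 CPM with saline against 98.6 to 117.1 with baicalin (-0.25 ± 0.08). Ppfia1, a liprin scaffold gene, was at 45.3, 36.5 and 44.5 CPM against 34.0, 36.5 and 34.2 (-0.27 ± 0.09). None of these values passed the adjusted threshold.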

How the data were processed

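Per the labels' protocols, total RNA was depleted of ribosomal RNA, fragmented and reverse-transcribed from random primers. The submitters' processing notes name bcl2fastq 2.0, HISAT2, StringTie, DESeq2, limma and the build mm10, with no roles. The authors' deposited table gives a whole-number count and an FPKM for each gene and library; the 2 were proportional within a gene (SD of the log2 ratio 0.0011 over 12236 genes), but no source here states how the counts were derived or if strand was considered. Another 12 columns of per-sample values fit none of the labelled samples and were left out.

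The 13153 genes averaging 1 FPKM or more were scaled by TMM and tested on the deposited counts with edgeR 4.0.16 (R 4.3.3), with Benjamini-Hochberg adjustment over all of them and a threshold of 0.05. Standard errors are the log2 change over the square root of F, and 95% intervals use its degrees of freedom. The code was tested on simulated counts with known changes. Alternatives comprised other filters on low values, pseudocounts of 1 and 0.1 FPKM, other scalings, DESeq2 1.42.0, limma 3.58.1, a length correction, a replicate block and leaving out each library. Same-numbered libraries were not paired by the labels. Named members were 24 fixed genes, the 10 with the smallest p, the 3 highest and 3 lowest changes and the extremes of level in each role; Stxbp5, Stxbp2, Stx3, Snap23, Snap47, Vamp3 and members under 1 FPKM were named after their values were seen. The members and lists were chosen with earlier results of these data known. Of the members, 76 matched GENCODE mouse release 21, 59 with identical coordinates; printed gene coordinates are the table's. Promoter sequences are RefSeq's (GRCm38.p6). Counts over members include a few genes whose own values are not reported here.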

Additional observations from a re-analysis of the deposited data

How the results depend on the processing

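Members called numbered 0 in all 18 alternatives, and the lowest adjusted p of any member was 0.165, in DESeq2. Genes called over the whole table numbered 6, against 211 in DESeq2, 0 with a replicate block and 2 to 39 when single libraries were left out; pathway genes called were 0 or 1 then (Slc6a17, without baicalin library 1). The replicate block rests on numbers that need not pair libraries (same-numbered correlations 0.123, 0.08 and 0.012); it left 1 member higher and 2 lower at an unadjusted p under 0.05 (4.92%, against 8.51% of all genes). The members' median was -0.10 under TPM scaling, where that of all genes was -0.08, and -0.0231 to 0.0137 without single libraries. The sign of some changes of named genes turned, and the cause was not tested. Under TPM scaling these included Snap25 (-0.0728), Stx1a (-0.0580), Vamp2 (-0.0524), Syp (-0.0090), Syn2 (-0.0660), Rims2 (-0.0602), Cplx1 (-0.0331), Cplx2 (-0.0089), Rab3a (-0.0272), Snap91 (-0.0704) and Rab3d (-0.0138). With the length trend removed they were Stx1a (-0.0103), Vamp1 (0.0304), Syt1 (0.00082) and the ratio of Vamp1 to Vamp2 (0.0136). Limma on log2(FPKM + 1) or + 0.1 gave -0.00063 for Snap25 and -0.0087 and -0.0092 for Snap91; filters of at least 0.1 and 5 FPKM gave -0.00024 and -0.0022 for Snap91, and the replicate block -0.0022. Quantile normalization gave -2.1e-05 for Snap25, -0.0243 for Syp and -0.0013 for Cplx2. Without single libraries the changes ran from -0.1861 to 0.0696 (Vamp1), -0.0257 to 0.0328 (Syn2), -0.0894 to 0.0978 (Snap91), -0.1309 to 0.5617 (Syt17), -0.5116 to 0.3308 (Syt14), -0.0325 to 0.0601 (Stx1a), -0.0658 to 0.3624 (Syt2), -0.1096 to 0.5629 (Syt7), -0.0514 to 0.0909 (Rims2), -0.0197 to 0.0275 (Snap25), -0.0665 to 0.0039 (Sv2a), -0.2264 to 0.1196 (Sv2b), -0.0058 to 0.0598 (Vamp2), -0.0050 to 0.0792 (Cplx1) and -0.9427 to 0.1092 (Stx16). For ratios they ran from -0.2359 to 0.0609 (Vamp1 to Vamp2), -0.6650 to 0.2440 (Syt1 to Syt7), -0.0681 to 0.0342 (Cplx1 to Cplx2), -0.1351 to 0.0330 (Snap25 to Snap23) and -0.1134 to 0.1542 (Sv2a to Sv2b). Reads of overlapping genes may be mixed, and strand was unstated. For 9 tested members such a gene had at least 5% of the member's counts. For Vamp3 and Sv2c that gene lies on the same strand as the member. For Syt2, Stx4a, Snap29, Stx18, Vamp3 and Sv2c the overlapping gene had more counts than the member. The part of those reads in the members' values was not tested.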

Other observations

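Among the pathway genes outside the symbol rule, 7 of 74 (9.46%) also had a library at least 1.5 times another of its group. Slc6a17, a vesicular amino acid transporter gene, was at 95.6, 110.1 and 99.0 CPM with saline and 85.4, 214.2 and 182.3 with baicalin, so 2 baicalin libraries lay high and 1 lay below the saline range. Without baicalin library 1 it passed the adjusted threshold in edgeR (log2 change 0.96). Pacsin1, which encodes an endocytic adaptor, was at 302.3 CPM in baicalin library 3 and at 121.8 to 140.7 in the other 5. Synpr, which encodes synaptoporin of mossy fibre terminals, was at 45.1 and 54.8 CPM in baicalin libraries 1 and 2 and at 116.0 to 153.8 elsewhere. Sypl was at 19.5, 22.5 and 22.2 CPM in baicalin libraries 1 and 2 and saline library 1, and at 42.7 to 46.1 in the other 3.

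Genes that overlap members showed levels of their own. Jmjd4, which overlaps Snap47, was at 37.3 CPM in saline library 1 and at 12.2 to 16.4 in the rest. Snap47 was at 272.4 to 294.0 CPM in all 6. Camta1, which overlaps Vamp3, was at 150.2 CPM in baicalin library 2 and at 214.2 to 313.3 elsewhere. Colgalt1 was at 39.5 CPM in baicalin library 2 and at 65.6 to 72.8 in the other 5. Unc13a was at 374.3 CPM in that library, and at 390.6 and 350.6 in baicalin libraries 1 and 3. The part of these overlapping genes in the levels of members was not tested.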
